A study of Mus musculus with 22 samples.

Results

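Wnt ligands are the secreted signals of one of the main families of cell-to-cell communication. The 10 members described here (Wnt2b, Wnt4, Wnt5a, Wnt6, Wnt7a, Wnt7b, Wnt9b, Wnt10a, Wnt10b and Wnt11) are the lines of the deposited expression table that carry these gene names, 10 of 55415 lines. They were selected on their names with the strong difference in Wnt10a TPM between GFP-negative and GFP-positive cells already known, so all differences of the members between those fractions are given as a description and were not tested.

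All libraries were made from mpkCCD, a mouse cell line of the kidney's cortical collecting duct that is itself a clone (secondary clone 38 of the mpkCCDc11 line), grown on permeable supports in a serum-free medium with dexamethasone. Unsorted wild-type (WT) cells received vehicle (3 libraries) or dDAVP, an agonist of the vasopressin V2 receptor (3 libraries). Cells of 4 clones with a GFP reporter (C1, C11, C43, C50), each given dDAVP, were divided into GFP-negative and GFP-positive cells, and each fraction of a clone has 2 libraries. That gave 22 libraries in 10 groups. By its title the series is about how aquaporin-2 (Aqp2), the water channel that vasopressin regulates, varies from cell to cell. The labels give neither the reporter's promoter, nor the dDAVP dose and time of each library, nor whether libraries of a group were separate cultures, so p-values measure only the spread between libraries.

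Wnt proteins are lipid-modified by Porcn, carried to the cell surface by Wls, and bind Frizzled receptors together with the co-receptors Lrp5 or Lrp6. In one branch this stabilises beta-catenin, which acts with TCF/LEF factors in the nucleus, and in others it acts on cell polarity and calcium without beta-catenin. In the developing kidney, Wnt9b from the ureteric bud induces nephron formation, Wnt4 acts in the induced mesenchyme, Wnt11 marks ureteric bud tips, and Wnt7b from the collecting duct epithelium is needed for the renal medulla.

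RefSeq promoter sequence was at hand for 7 of the 10 members (all but Wnt5a, Wnt7b and Wnt10a). The stretches upstream of the start site of 3 members that differed in all clones between the fractions are shown, Wnt7a and Wnt6 (lower in GFP-positive cells) and Wnt4 (higher), because they let the promoters of members that moved in opposite directions be read side by side. Each is written 5′ to 3′ on the gene's own strand, and capitals mark the GC box GGGCGG or its complement CCGCCC, the kind of site that Sp1-family factors bind. The Wnt7a stretch is chr6:91411364-91411603 of GRCm38.p6 on the minus strand, the Wnt6 stretch chr1:74771642-74771891 on the plus strand and the Wnt4 stretch chr4:137277385-137277488 on the plus strand.
Wnt7a: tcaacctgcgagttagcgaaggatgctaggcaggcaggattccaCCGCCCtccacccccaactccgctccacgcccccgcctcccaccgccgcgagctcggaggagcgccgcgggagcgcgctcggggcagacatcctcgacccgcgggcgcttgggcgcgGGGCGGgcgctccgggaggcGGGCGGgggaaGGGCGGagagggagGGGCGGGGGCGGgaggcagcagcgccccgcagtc
Wnt6: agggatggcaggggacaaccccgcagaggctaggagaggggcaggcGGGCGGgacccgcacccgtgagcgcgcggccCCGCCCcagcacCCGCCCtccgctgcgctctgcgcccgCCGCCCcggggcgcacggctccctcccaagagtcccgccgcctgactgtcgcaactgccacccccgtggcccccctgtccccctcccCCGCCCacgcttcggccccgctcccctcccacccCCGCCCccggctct
Wnt4: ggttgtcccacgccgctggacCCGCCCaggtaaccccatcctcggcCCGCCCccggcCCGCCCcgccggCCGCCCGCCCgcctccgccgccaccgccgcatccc
All 3 were rich in G and C, with 77.1% in Wnt7a (240 bases), 79.6% in Wnt6 (250 bases) and 83.7% in Wnt4 (104 bases). GC boxes, searched on both strands with overlaps counted, numbered 6 in Wnt7a, 6 in Wnt6 and 5 in Wnt4. Of all 32851 promoters in the RefSeq table, 31.3% held at least 1 GC box in their first 240 bases. The share was 32.7% in the first 250 bases and 11.0% in the first 104 bases. These shares count promoters with at least 1 box, not boxes per promoter. The first 104 or 240 bases may lie at another distance from the start site than the stretches shown. The TCF/LEF core CTTTGA, the cAMP-response core TGACG, the AP-1 site TGANTCA and the C/EBP site TTGCNNAA were searched likewise, and none of these letters was found in the 3 windows. In the 250-base window the TCF/LEF core occurred in 13.8% of all promoters, the cAMP-response core in 17.8%, the AP-1 site in 6.75% and the C/EBP site in 9.56%. In the first 104 bases, the length of the Wnt4 stretch, these shares were 6.51%, 5.56%, 2.59% and 4.29%. RefSeq places the noncoding gene Gm30437 over the Wnt7a stretch.

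Expression was deposited as TPM, a gene's share of all transcripts in a library after allowing for transcript length, so levels of different genes can be compared. TPM keep no sequencing depth, so the depth behind each value is unknown. Libraries had 12293 to 14341 genes at a TPM of 1 or more. GFP-negative replicate 1 of clone C50 stood apart, with the fewest such genes (the other 21 libraries started at 12529) and with 8.32% of TPM from ribosomal-protein genes (3.85% to 6.12% in the others). GFP itself was 5.31 to 17.57 TPM in the 8 GFP-negative libraries and 1064.51 to 1566.94 TPM in the 8 GFP-positive ones, and Aqp2 was 66.5 to 1679.76 and 2007.53 to 7254.3 TPM. In bulk RNA, fewer cells that express a gene and less RNA per cell cannot be told apart. Of 13 principal cell markers 10 had a mean of at least 1 TPM, and the defining Aqp2 and Avpr2 were present in every library.

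Wnt7b dominated the Wnt ligands in every group. The summed TPM of the 10 members ran from 371 to 500 in the 6 WT libraries, from 256 to 513 in GFP-negative and from 240 to 336 in GFP-positive libraries. Wnt7b made up 71.8% to 72.9% of that sum in WT, 58.0% to 74.3% in GFP-negative and 72.4% to 83.8% in GFP-positive libraries. Together with Wnt4, Wnt7a and Wnt10a it held at least 98.8% of the sum in every library. The make-up of the rest differed between the fractions: Wnt7a had a median share of 11.7% in GFP-negative and 3.26% in GFP-positive libraries, and Wnt10a 11.1% and 1.04%. Wnt4 went the other way, with a median share of 6.85% (range 4.78% to 15.95%) in GFP-negative and 17.3% (range 10.7% to 24.9%) in GFP-positive libraries. Wnt4 was therefore the second ligand by share in GFP-positive cells. Its GFP-negative share of 15.95% was that of the C50 library that stood apart. In the GFP-negative libraries of the other clones its share was at most 7.63%.

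**Figure D1:**
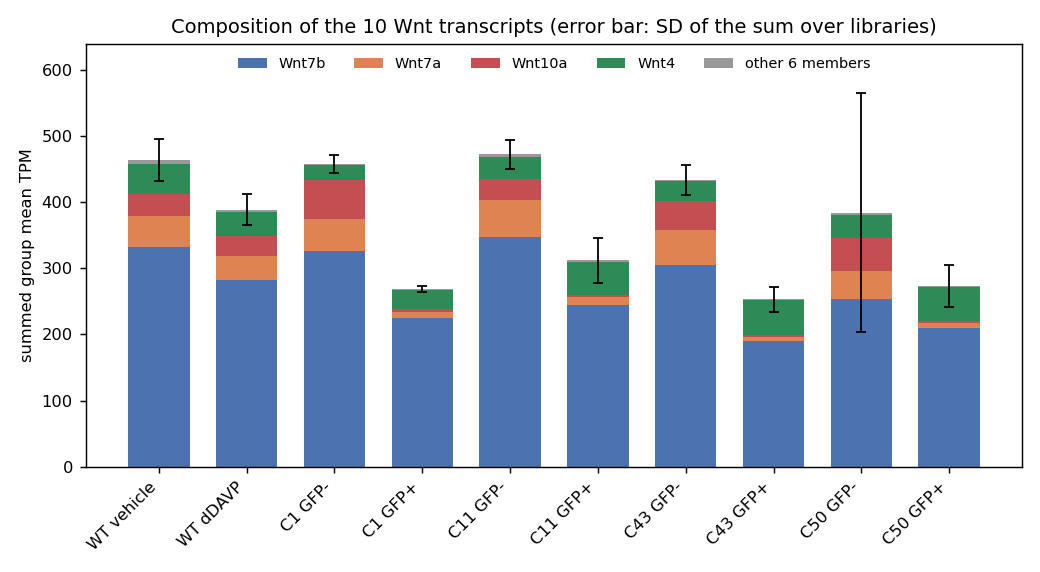
Summed group mean TPM of the 10 Wnt members (vertical axis) in each of the 10 groups, with segments for Wnt7b, Wnt7a, Wnt10a, Wnt4 and the other 6 members; error bars are the SD of the sum over the libraries of a group (n = 3 in WT, n = 2 in clones). Wnt7b is the tallest segment throughout, the Wnt7a and Wnt10a segments are thin in all GFP-positive groups, and the wide bar of C50 GFP-negative comes from sums of 256 and 513 TPM.

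Wnt10a, a ligand known for roles in tooth, hair and skin development, was the abundant member with the largest difference between the fractions on the log2 scale. In WT cells it was 33.6, 30.98 and 35.75 TPM with vehicle and 32.78, 27.66 and 28.81 TPM with dDAVP. In GFP-negative cells it was 64.69 and 52.75 TPM in C1, 31.24 and 31.05 in C11, 45.36 and 41.7 in C43, and 39.47 and 59.69 in C50. GFP-positive cells gave 5.62 and 3.81 TPM in C1, 2.42 and 2.11 in C11, 1.54 and 2.86 in C43, and 3.73 and 2.52 in C50. Every GFP-positive library lay below every other library. The GFP-negative mean was 12.5 times the GFP-positive mean in C1, 13.8 times in C11, 19.8 times in C43 and 15.9 times in C50, and 14.9 times over the 8 libraries of each fraction. The authors' deposited table gives the inverse, positive over negative, as 0.08, 0.07, 0.05 and 0.06. On the log2(TPM + 1) scale, which understates changes of low values, the difference was -3.53. In the order of group means, the C1, C50 and C43 GFP-negative groups came first and overlapped in turn, then WT vehicle, C11 GFP-negative and WT dDAVP, again overlapping, and after a wide gap the GFP-positive groups of C1, C50, C11 and C43, of which the last 2 overlapped.

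Wnt7a, which patterns the limb and the female reproductive tract, had a like pattern. Its group mean was above that of Wnt10a in all groups but C1 GFP-negative and C50 GFP-negative. With vehicle it was 55.54, 43.98 and 40.7 TPM and with dDAVP 31.99, 40.52 and 38.22 TPM. GFP-negative libraries had 51.07 and 46.63 TPM in C1, 56.78 and 57.22 in C11, 53.34 and 54.77 in C43, and 25.51 and 59.85 in C50. In GFP-positive libraries it was 7.13 and 10.06 TPM in C1, 12.89 and 11.69 in C11, 7.31 and 3.81 in C43, and 6.06 and 9.21 in C50. All GFP-positive libraries again lay below all others, and the low GFP-negative value of 25.51 TPM was that of the library that stood apart. The GFP-negative mean was 5.68 times the GFP-positive mean in C1, 4.64 times in C11, 9.72 times in C43 and 5.59 times in C50, and the log2 difference over clones was -2.47 (-2.60 without that library).

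Wnt7b differed less. With vehicle it was 359.09, 319.89 and 320.39 TPM, and with dDAVP 267.01, 301.56 and 277.5 TPM. In GFP-negative cells it was 306.16 and 345.43 TPM in C1, 331.08 and 362.89 in C11, 288.91 and 320.93 in C43, and 148.68 and 358.32 in C50. GFP-positive cells held 222.28 and 227.7 TPM in C1, 221.87 and 267.72 in C11, 188.47 and 193.23 in C43, and 230.15 and 189.01 in C50. The fractions did not overlap in C1, C11 and C43 but did in C50, where 1 GFP-negative library, the one that stood apart, was the lowest of all 22. Over the 8 libraries the GFP-negative mean was 1.41 times the GFP-positive mean, and the log2 difference was -0.46 (-0.61 without that library). Neighbouring groups in the order of Wnt7b means overlapped at every step.

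Wnt4, a ligand of nephron formation, was the abundant member that was higher in GFP-positive cells. With vehicle it was 46.14, 46.39 and 44.15 TPM, and with dDAVP 35.38, 41.92 and 32.97 TPM. GFP-negative cells gave 25.31 and 22.4 TPM in C1, 34.92 and 33.48 in C11, 28.62 and 31.81 in C43, and 40.91 and 29.99 in C50. In GFP-positive cells it was 30.3 and 29.18 TPM in C1, 49.51 and 52.71 in C11, 41.62 and 66.46 in C43, and 54.59 and 48.08 in C50. Within each clone the fractions did not overlap, but the C1 GFP-positive values lay among the GFP-negative values of the other clones. The GFP-positive mean was 1.51 times the GFP-negative mean over 8 libraries each, and the log2 difference was 0.55, from 0.31 in C1 to 0.78 in C43.

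The other 6 members were scarce. Wnt6 was 0.96, 0.8 and 1.95 TPM with vehicle and 1.76, 1 and 0.51 TPM with dDAVP. In GFP-negative libraries it had a lowest value of 0.71, a median of 1.235 and a highest value of 2.49 TPM, against 0, 0.06 and 0.29 TPM in GFP-positive ones. Wnt6 thus shared the direction of Wnt10a in all 4 clones, at levels where an exact 0 means only that the gene is listed at 0. Wnt9b was 4.26, 3.26 and 2.95 TPM with vehicle and 1.55, 1.86 and 1.52 TPM with dDAVP, and its fractions overlapped, with medians of 0.48 TPM in GFP-negative and 0.68 TPM in GFP-positive libraries. Wnt2b reached at most 0.67 TPM, Wnt10b 0.59, Wnt5a 0.34 and Wnt11 0.14 TPM, and they were listed at 0 in 1, 9, 8 and 18 of the 22 libraries. Wnt5a, the best known ligand of the branch without beta-catenin, and Wnt11, the ureteric tip ligand, were therefore near 0 in these cells.

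**Figure D2:**
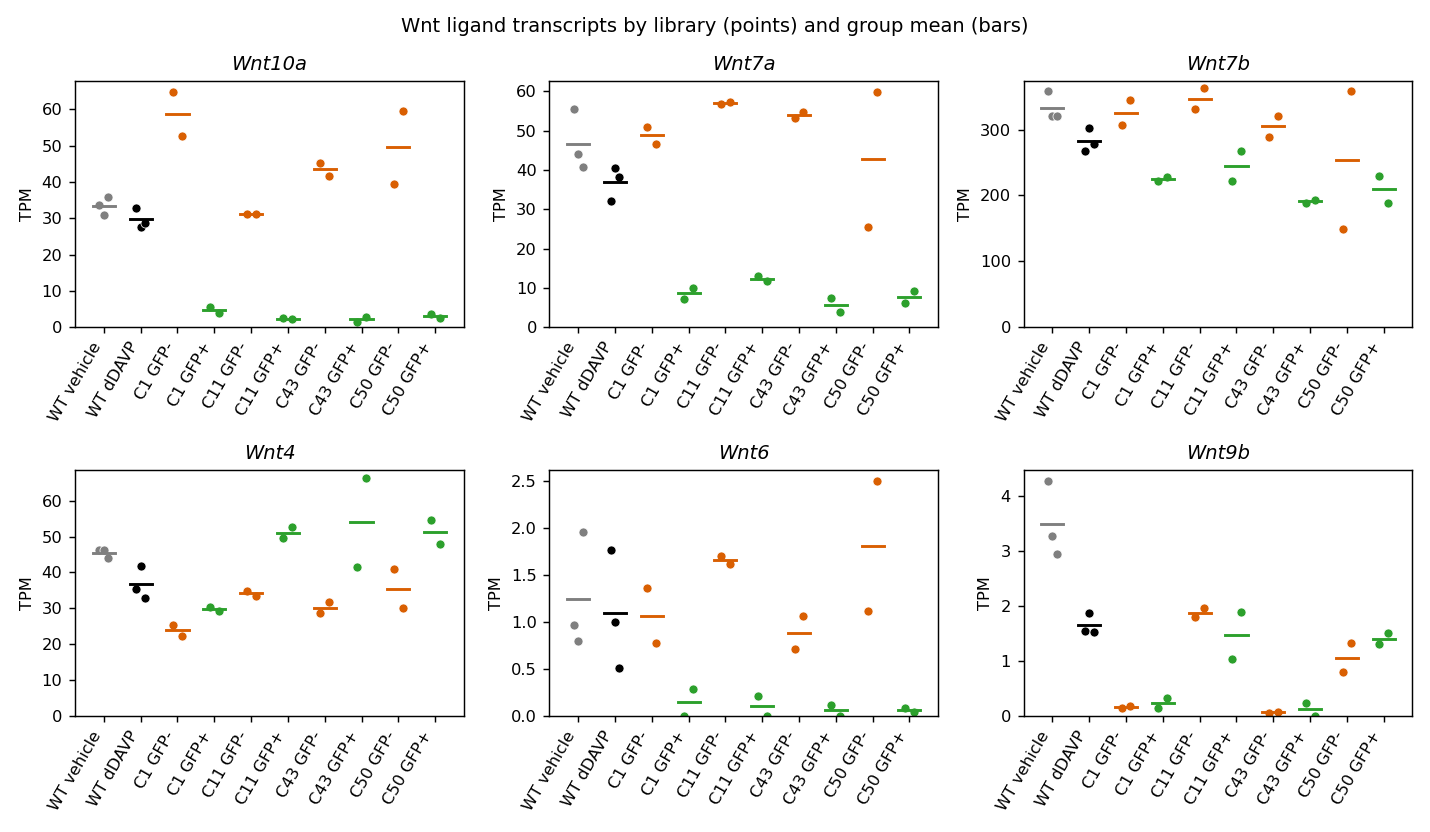
TPM (vertical axis, linear, own scale per gene) of Wnt10a, Wnt7a, Wnt7b, Wnt4, Wnt6 and Wnt9b in the 10 groups; each point is a library and each bar the group mean. GFP-positive points lie below the GFP-negative points of the same clone for Wnt10a, Wnt7a and Wnt6 and above them for Wnt4, while Wnt9b is lower in C1 and C43 than in C11 and C50.

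Among the 10 members, Wnt10a, Wnt7a and Wnt6 were lower and Wnt4 higher in GFP-positive cells without overlap in all 4 clones. Of all 13113 genes tested in the clones, 12.2% were lower and 6.72% higher in that sense, and 35.3% were called between the fractions by limma at an adjusted p under 0.05 (12.1% higher, 23.2% lower). Those genes had a mean of at least 1 TPM in the clones, which 6 of the 10 members, Wnt6 among them, did not reach. Since the members were chosen with this contrast in view, nothing is read from these counts. For the 4 members tested in the clones no sign changed under the alternatives run, and the log2 difference stayed between -3.90 and -3.43 for Wnt10a, -2.61 and -2.25 for Wnt7a, -0.61 and -0.38 for Wnt7b, and 0.47 and 0.64 for Wnt4.

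**Figure D3:**
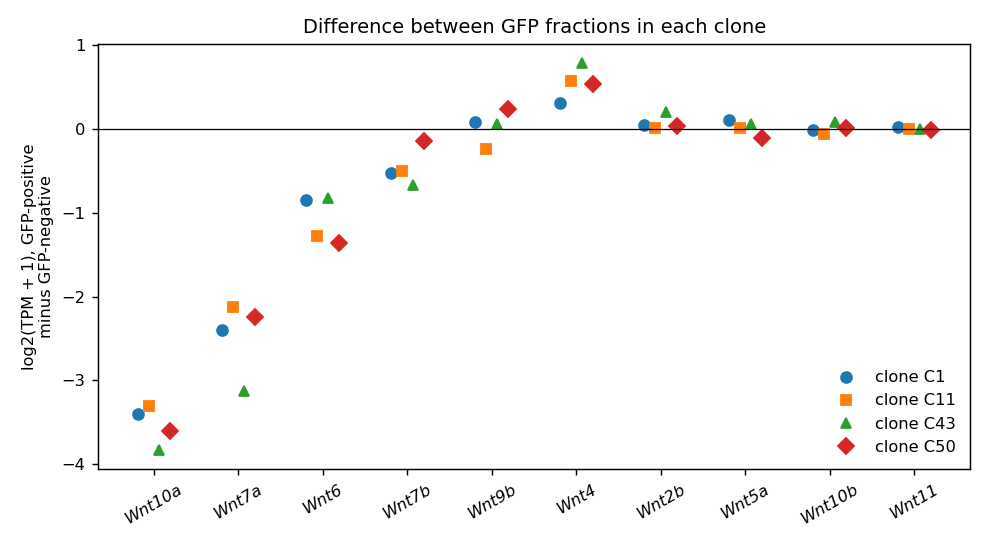
Difference of mean log2(TPM + 1), GFP-positive minus GFP-negative (vertical axis), for each of the 10 members (horizontal axis); each marker is 1 clone with 2 libraries per fraction. Wnt10a lies between -3.83 and -3.30 and Wnt7a between -3.12 and -2.13 in the 4 clones, Wnt4 lies above 0, and the members near 0 TPM lie at the zero line.

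Whether the size of the fraction difference varied between clones is a separate question, since it does not depend on the mean difference that guided the choice. The largest gap between clones in that difference was 0.53 on the log2 scale for Wnt10a (limma interaction F-test, adjusted p = 0.724), 1.00 for Wnt7a (adjusted p = 0.563), 0.53 for Wnt7b (adjusted p = 0.801) and 0.47 for Wnt4 (adjusted p = 0.694). By limma 0 of these 4 passed, beside 0.869% of all genes, and 0 of 4 had an unadjusted p under 0.05. With 2 libraries per group, this does not show that the clones act alike. Without GFP-negative replicate 2 of C50, which leaves the library that stood apart alone in its group, Wnt7a (1.48, limma adjusted p = 0.0474) and Wnt7b (1.16, limma adjusted p = 0.00365) passed, as did 5038 genes in all.

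Levels averaged over both fractions differed between clones for Wnt10a and Wnt4. This comparison was a limma F-test over 4 clones with fraction as a covariate, and it called 28.0% of all genes, beside 2 of the 4 members tested. Wnt10a had mean log2(TPM + 1) levels of 4.19 in C1, 3.83 in C50, 3.56 in C43 and 3.36 in C11 (SE 0.13 each), a largest difference of 0.84 (limma adjusted p = 0.0138). Clone C1 carried the highest Wnt10a in both fractions. The call was lost without clone C1 (limma adjusted p = 0.324), without C11 (0.0995) and without GFP-positive replicate 1 of C1 (0.0502). Wnt4 was lowest in C1, with 4.79 against 5.35 to 5.44 in the other clones (SE 0.10 each), a largest difference of 0.65 (limma adjusted p = 0.00803). Without clone C1 the remaining clones differed by 0.09 (limma adjusted p = 0.921), so the call rested on C1.

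Wnt7a (0.59, limma adjusted p = 0.264) and Wnt7b (0.40, limma adjusted p = 0.369) did not pass, although Wnt7b did without clone C50 (0.27, limma adjusted p = 0.032). Wnt9b, the inducer of nephrons, was below the minimum mean of 1 TPM in the clones, and its values grouped by clone. It was 0.14 to 0.32 TPM in the 4 C1 libraries, 0 to 0.23 in C43, 1.04 to 1.96 in C11 and 0.79 to 1.51 in C50. The C1 and C43 libraries therefore did not overlap with those of C11 and C50. With no minimum level, the largest clone difference of Wnt9b was 1.28 (limma adjusted p = 0.000808), in a fit that called 6.58% of 40321 genes.

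In WT cells 0 of 6 members tested passed limma's test of dDAVP against vehicle, in which 8.88% of all genes were called (2.37% higher, 6.51% lower). At an unadjusted p under 0.05 there were 3 of 6 (Wnt4, Wnt7b and Wnt9b), and 4179 of all 13494 genes. Of these members, Wnt4, Wnt7a, Wnt7b and Wnt9b were lower in every dDAVP library than in any vehicle library. Such separation was common, at 28.7% of all genes in that direction and 7.12% in the other. For Wnt9b the vehicle mean was 3.49 ± 0.685 TPM and the dDAVP mean 1.64 ± 0.188 TPM (SD, n = 3 each). Its log2 difference of -0.76 (SE 0.20, 95% interval -1.23 to -0.28) gave a limma adjusted p of 0.0612. Wnt4 gave -0.31 (interval -0.55 to -0.07, limma adjusted p = 0.0968) and Wnt7b -0.24 (interval -0.42 to -0.05, limma adjusted p = 0.0946). For Wnt7a the difference was -0.33 (interval -0.66 to 0.00, limma adjusted p = 0.163). Wnt10a was 33.4 ± 2.39 and 29.75 ± 2.69 TPM (SD, n = 3 each), a difference of -0.16 (interval -0.40 to 0.07, limma adjusted p = 0.295), and Wnt6 gave -0.11 (interval -0.92 to 0.70, limma adjusted p = 0.849). The interval of Wnt10a with dDAVP did not reach the -3.53 seen between the fractions, but the experiments differ in cells, sorting and treatment, and the 2 values were not tested against each other.

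These WT values sit on a downward shift of the whole table. The median difference of all genes was -0.157 as deposited and -0.000411 after median-ratio scaling, a shift of over 0.1. Relative to that shift, Wnt10a was at 0.00 and Wnt6 at -0.01 after median-ratio scaling, while Wnt7b was at -0.07, Wnt4 at -0.14, Wnt7a at -0.16 and Wnt9b at -0.63 (limma adjusted p = 0.088). With quantile normalization Wnt10a was at 0.02, Wnt6 at -0.12, Wnt4 at -0.14, Wnt7a at -0.16, Wnt7b at -0.32 and Wnt9b at -0.68, so the value of Wnt7b in particular depended on the scaling. Wnt4 passed when dDAVP replicate 2 was left out (-0.41, limma adjusted p = 0.0306). With detected genes per library as a covariate Wnt7a (limma adjusted p = 0.0336), Wnt7b (0.04) and Wnt9b (0.0398) passed, and without a mean-variance trend Wnt9b did (limma adjusted p = 0.0372). Wnt9a, a Wnt ligand gene outside the 10 members, was called: it was 27.95, 27.76 and 26.52 TPM with vehicle and 13.42, 15.26 and 14.2 TPM with dDAVP, a difference of -0.89 (SE 0.09, limma adjusted p = 0.00254). In the clones Wnt9a did not pass between the fractions, with medians of 18.2 TPM in GFP-negative and 16.3 TPM in GFP-positive libraries.

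**Figure D4:**
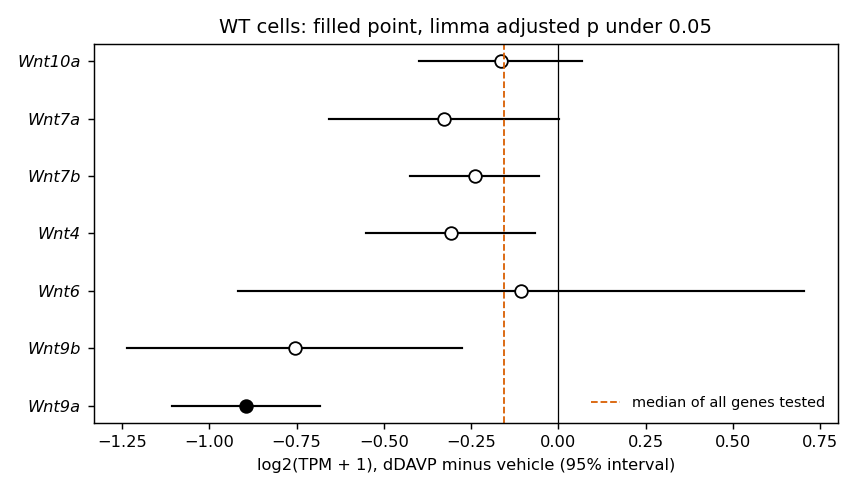
Difference of mean log2(TPM + 1), dDAVP minus vehicle, in WT cells (horizontal axis) for the 6 members tested and Wnt9a; points are estimates over 3 libraries per group, lines their 95% intervals, and the dashed line the median of all genes tested at -0.157. The intervals of Wnt10a, Wnt7a and Wnt6 include 0, and only Wnt9a is drawn filled, as called at a limma adjusted p under 0.05.

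Across the 10 group means of log2(TPM + 1), Wnt10a ran with Wnt7a (Pearson r = 0.956), Wnt6 (0.935) and Wnt7b (0.830), and against Wnt4 (-0.683). These are descriptions over 10 points that share libraries and the same contrast of fractions. The genes of the table whose pattern was most like that of Wnt10a, among 11235 candidates, were Lhfp (r = 0.992), Ccnd1 (0.991), Fgf21 (0.991), Loxl4 (0.989) and Slc4a11 (0.989). Ccnd1 encodes cyclin D1 of the cell cycle, Fgf21 a circulating growth factor, Loxl4 a lysyl oxidase that cross-links matrix and Slc4a11 a membrane transporter. Lhfp was 38.9 to 55.01 TPM in WT, 48.3 to 88.7 TPM in GFP-negative and 3.31 to 12.5 TPM in GFP-positive libraries. By Spearman rank 0 of these 5 stayed among the 5 most alike, and over the 8 clone groups alone 4 of 5 did.

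Wnt6 and Wnt10a lie next to each other on chromosome 1 in RefSeq (GRCm38.p6), with no protein-coding gene between them, and both were lower in GFP-positive cells. Next to Wnt7a on chromosome 6 lies Fbln2, a matrix glycoprotein gene singled out after its values were seen, at 8.84 to 96.4 TPM in GFP-negative and 0 to 2.59 TPM in GFP-positive libraries. The other flank of Wnt7a, Chchd4, was 21.4 to 33.6 and 14.1 to 19.8 TPM. Of the flanks of Wnt4, Zbtb40 was 0.55 to 3.16 TPM in GFP-negative and 1.06 to 1.96 TPM in GFP-positive libraries, and Cdc42 was higher in GFP-positive cells without overlap in each of the 4 clones, as Wnt4 was, by 0.14 to 0.36 on the log2 scale. RefSeq also places a noncoding gene over Wnt7b (AU022754, 0.48 to 2.22 TPM), Wnt7a (Gm30437, at most 0.39 TPM), Wnt6 (Gm29539, at most 0.73 TPM) and Wnt10a (Gm32099, not analysed here). The labels state no strand for the counting, so reads of overlapping genes cannot be told apart. The same holds for Wnt2b, which overlaps St7l (28.85 to 53.67 TPM), and for Wnt9b, which overlaps Wnt3 (at most 0.46 TPM).

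Of 117 other Wnt pathway genes in the table, 66 reached a mean of 1 TPM in the clones and were tested between the fractions and 25 were called (37.9%, beside 35.3% of all genes), 8 higher and 17 lower in GFP-positive cells. Their median difference was -0.05, against -0.06 for all genes. The split of directions moved with the scaling: with median-ratio scaling 12 pathway genes were called higher and 16 lower, and with quantile normalization 13 and 17. With the 4 clone means as replicates, 12 of the 66 were called. Of the called genes named below, Tmed2, Porcn, Wls, Fzd1, Ryk, Sfrp5, Axin1, Csnk1e, Tle1, Tcf7l1, Tle4 and Prickle3 lost their calls. Their limma adjusted p was 0.0514 to 0.143 in that fit.

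For Wnt secretion, 6 of 9 genes were called, 1 higher and 5 lower. Tmed5, a carrier in the early secretory route, was 65.4 to 99.6 TPM in GFP-negative and 31.2 to 67.7 TPM in GFP-positive libraries (-0.75, SE 0.11, limma adjusted p = 0.000134). Vps29 of the retromer, which recycles Wls, fell by 0.44 (limma adjusted p = 0.000223), and Tmed2 and the acyltransferase gene Porcn each fell by 0.33 (limma adjusted p = 0.000527 and 0.00289). Wls itself, the dedicated Wnt carrier, rose by 0.23 (limma adjusted p = 0.0253), a call that was lost when any 1 of 5 libraries was left out (limma adjusted p 0.0505 to 0.0553), and without clone C1 (0.0675) or C43 (0.113). The machinery for releasing Wnt proteins was thus present in both fractions, with Wls at 233 TPM or more in every library.

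Among Frizzled receptors and co-receptors, 5 of 11 were called, 2 higher and 3 lower. Fzd4 had a median of 5.33 TPM in GFP-negative and 9.85 TPM in GFP-positive libraries (0.84, SE 0.15, limma adjusted p = 0.000498). Lrp6, the co-receptor of the beta-catenin branch, had medians of 34.4 and 59.7 TPM (0.69, SE 0.12, limma adjusted p = 0.000408). Fzd1 (-0.72, limma adjusted p = 0.0153), Fzd2 (-0.64, limma adjusted p = 0.000184) and the receptor kinase-like gene Ryk (-0.27, limma adjusted p = 0.00673) were lower. The Fzd1 call was lost without clone C1 (-0.49, limma adjusted p = 0.144) or C43 (0.107), and that of Ryk without C11 (0.0759) or C43 (0.059). The R-spondin receptor Lgr6 was the 1 gene called of 3 in its list. It was 0.51 to 4.64 TPM in GFP-negative and 0.06 to 0.76 TPM in GFP-positive libraries, so it reached the minimum mean of 1 TPM only through the GFP-negative libraries, and nothing is read from its call. Of 3 inhibitors tested, the secreted decoy Sfrp5 was higher (0.60, limma adjusted p = 0.00281).

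Inside the cell, 2 of 16 genes of the destruction complex were called, both lower. These were the scaffold Axin1 (-0.44, limma adjusted p = 0.0469), whose call was lost without any 1 of 13 of the 16 libraries (limma adjusted p 0.0518 to 0.0977) and without clone C1 (0.164), C11 (0.206) or C43 (0.255), and the kinase gene Csnk1e (-0.27, limma adjusted p = 0.00304). Of the TCF/LEF group 5 of 10 were called, 3 higher and 2 lower. Ctnnbip1, an inhibitor of the binding of beta-catenin to TCF, fell by 1.12 (limma adjusted p = 2.43e-05) and the corepressor gene Tle1 by 0.58 (limma adjusted p = 0.00781). The corepressor gene Tle2 rose by 0.83 (limma adjusted p = 0.00171) and Tcf7l1 by 0.63 (limma adjusted p = 0.0139). The Tle1 call was lost without clone C11 (limma adjusted p = 0.0672) or C43 (0.0746), and that of Tcf7l1 without C1 (0.0786). Tle4 rose by 0.34 (limma adjusted p = 0.0341), but not without any 1 of 7 libraries (limma adjusted p 0.0505 to 0.0755), nor without any 1 of the 4 clones (0.0625 to 0.0885, with a value of 0.17 without C50). Of 8 planar polarity genes, Vangl1 was lower (-0.52, limma adjusted p = 0.00432) and Prickle3 higher (0.56, limma adjusted p = 0.0102).

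Of the genes listed as beta-catenin targets, 5 were tested and 3 were called, all lower in GFP-positive cells. Among all genes, 23.2% were called lower. Not called were Myc and Jag1. Myc, the most abundant of the 5, was 376 to 757 TPM in GFP-negative and 345 to 832 TPM in GFP-positive libraries. Jag1 was 1.02 to 8.76 and 2.1 to 4.52 TPM. Ccnd1 was 10.95 to 24.4 TPM in GFP-negative and 0.64 to 2.55 TPM in GFP-positive libraries (-3.23, SE 0.15, limma adjusted p = 3.53e-09). Sox9, a transcription factor of epithelial progenitors, fell by 1.14 (limma adjusted p = 0.000761) and Cd44, a hyaluronan receptor, by 0.82 (limma adjusted p = 0.000233). Axin2, a feedback target of the beta-catenin branch, was at most 0.4 TPM and listed at 0 in 10 of 22 libraries. Nkd1, a further feedback target, was at most 0.13 TPM. Activity of the pathway was not tested.

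Markers of cell state also differed between the fractions. The summed TPM of 13 principal cell markers, which include Aqp2, was 656 to 3061 in GFP-negative and 3230 to 10827 in GFP-positive libraries. Aqp2 and Fxyd4, a regulator of the sodium pump, made up most of the mean sum in both fractions. Of the 10 markers tested 7 were called higher and 1 lower, the scarce water channel gene Aqp3 (medians of 1.945 and 0.575 TPM, -0.64, limma adjusted p = 0.0195). The Aqp3 call was lost without clone C1 (limma adjusted p = 0.0879), C43 (0.0989) or C50 (0.0568). In GFP-positive libraries the mean of Aqp3 was below the minimum of 1 TPM. Aqp3 reached that minimum only through the GFP-negative libraries, so nothing is read from its call. For 11 mesenchymal markers the sum was 32.9 to 103.7 and 0.76 to 13.2 TPM, and it came almost wholly from Fn1, fibronectin, the 1 gene of the list with a mean of at least 1 TPM. Acta2 and the collagen genes Col1a1, Col1a2 and Col3a1 were at or near 0 in both fractions. Intercalated cell markers summed to 23.7 to 75.9 and 51.7 to 119 TPM. Most of that sum was 1 gene, Atp6v1b1, at 19.4 to 71.6 and 44.6 to 110 TPM. It was called higher (0.81, limma adjusted p = 0.00899), but not without clone C50 (limma adjusted p = 0.0587). Foxi1, Slc4a1, Slc26a4, Atp6v1g3, Atp6v0d2 and Insrr were at or near 0 in both fractions. The part of these differences in the Wnt values was not tested.

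**Figure D5:**
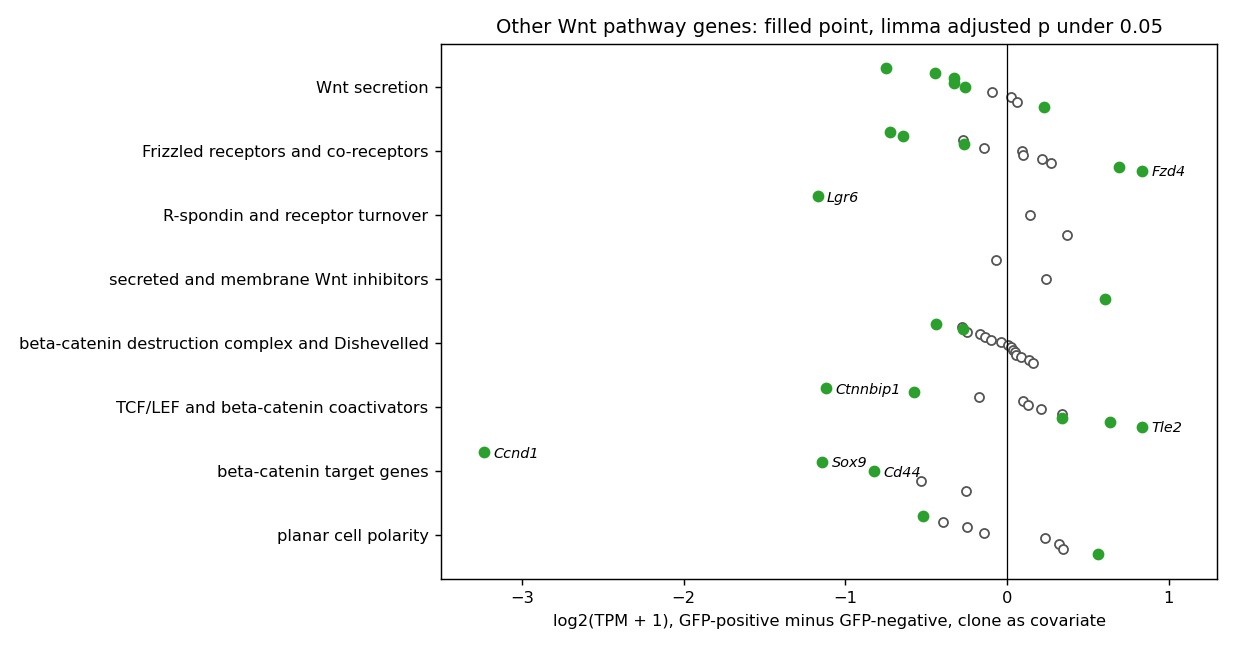
Difference of mean log2(TPM + 1), GFP-positive minus GFP-negative, with clone as a covariate (horizontal axis) for the tested Wnt pathway genes outside the 10 members, Wnt9a left out, in 8 functional groups (vertical axis); each point is a gene, filled where the limma adjusted p is under 0.05. Ccnd1 lies at -3.23, far from the other genes, and the receptor and TCF/LEF groups have filled points on both sides of 0.

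With dDAVP in WT cells, 6 of 67 pathway genes were called (8.96%, beside 8.88% of all genes), all lower, with a median of -0.25 against -0.16 for all genes. Besides Wnt9a these were the receptor genes Fzd2 (-0.82, limma adjusted p = 0.00653) and Lrp5 (-0.75, limma adjusted p = 0.0204), Apc2 (-0.91, limma adjusted p = 0.0441) and Dvl2 (-0.41, limma adjusted p = 0.0247) of the intracellular relay, and Jag1, a Notch ligand (-0.87, limma adjusted p = 0.0108). With median-ratio scaling 4 were called, again all lower. Lrp5, Apc2 and Dvl2 were each lost without any 1 of 5 of the 6 libraries (limma adjusted p 0.0579 to 0.14), and Jag1 without vehicle replicate 2 (limma adjusted p = 0.0508).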

How the data were processed

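Nextera XT libraries of cDNA from the SMART-Seq HT kit were sequenced paired-end, per the labels' protocols. STAR and RSEM are named in the submitters' processing notes. The genome build and annotation are not given in the sources used here. The authors deposited TPM per gene and library, plus group means and a ratio of group means per comparison, which are printed only where named as the authors' values. The highest value per line (1 column) was not used. Members and gene lists were chosen with earlier results of these data known.

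Lines sharing a symbol were summed (55415 lines, 54514 symbols). Models were fitted with limma 3.58.1 (statmod 1.5.0, R 4.3.3) on log2(TPM + 1), a pseudocount of 1, for genes with a mean of at least 1 TPM over the libraries of the comparison, with a mean-variance trend. Tests were two-sided and adjusted by Benjamini-Hochberg over all genes tested, and genes with an adjusted p under 0.05 were called. WT treatment used 6 libraries. Fraction (clone as covariate), clone (fraction as covariate) and their interaction used 16. The code was tested on simulated data. Alternatives were a pseudocount of 0.1, a mean of 5 TPM or any TPM above 0, median-ratio or quantile scaling, no trend, robust moderation, detected genes as a covariate, a replicate block, clone means, and leaving out each library or clone.

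Named genes were all 10 members, the called genes of each pathway list (up to 4 rises and 4 falls per comparison), the 5 genes most like Wnt10a, Aqp2 and GFP. Other genes named, among them neighbours on the chromosome, Axin2, Nkd1 and single markers, were chosen after their values were seen. No pair of libraries held identical values (0 pairs). Without depth, no interval or limit from counts was computed, and precision rests on the 2 or 3 libraries per group.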

Additional observations from a re-analysis of the deposited data

How the results depend on the processing

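For dDAVP in WT cells 1198 genes were called, and 442 with any TPM above 0, 757 with median-ratio scaling, 691 with no mean-variance trend, 2694 with detected genes as a covariate and 314 to 2038 when 1 library was left out. The split of these calls was 320 higher and 878 lower as deposited, 451 and 306 with median-ratio scaling, and 436 and 373 with quantile normalization. Between the fractions it was 1582 and 3044 as deposited, 2382 and 2294, and 2520 and 2505. Pathway genes called with dDAVP numbered 6, and 3 with any TPM above 0, 12 with detected genes as a covariate and 2 to 16 with 1 library left out. Clone differences (3669 genes) ranged from 975 without clone C1 to 5889 without C50 GFP-negative replicate 1. Between the fractions 4626 genes were called, 2406 with clone means as replicates and 3321 to 6043 with a library or clone left out, and pathway genes numbered 25, 12 and 19 to 34. The interaction called 114 genes, 237 with quantile normalization, 13 without clone C1, 328 without C50 GFP-negative replicate 1 and 5038 without C50 GFP-negative replicate 2.

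Same-numbered libraries did not deviate together in every pair (correlations of -0.208, -0.0254 and -0.109 in WT, C1 0.0582, C11 -0.0168, C43 0.212, C50 0.0827). With so few libraries per group these values cannot exclude that same-numbered libraries were paired, and the labels do not say. The main fits used no pairing. With the replicate block 122 genes were called for dDAVP (119 shared with the 1198), 1 pathway gene for dDAVP (Wnt9a, with Fzd2 lost at a limma adjusted p of 0.0721 and Jag1 at 0.0917), 4159 for clone differences, 4259 genes and 23 pathway genes between the fractions, and 11 for the interaction.

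The dDAVP difference changed sign for Wnt10a with median-ratio scaling (0.00297) and quantile normalization (0.0247), and for Wnt6 with detected genes as a covariate (0.0202), without WT vehicle replicate 3 (0.11) and without WT dDAVP replicate 3 (0.11), within a range of -0.33 to 0.11 when 1 library was left out. For the sign changes in scaling the shift of all genes is given in the text; for the others the cause was not tested. Of 58 single-gene results with a test, 23 kept their direction and their side of the threshold in every alternative run. Members below 1 TPM are limited by depth that TPM do not show.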
